A study of Mus musculus with 2 samples.

Results

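Collagens are the main structural proteins of the extracellular matrix. All mouse genes with a symbol of the form Col, number, a, number were taken as collagen genes. Of the 25814 genes with a UMI (a unique molecular identifier, the tag that counts one captured transcript once) in either library, 44 had such a symbol and 43 had 20 or more UMIs over both libraries; Col19a1 was the symbol left out. They were sorted into 11 fibrillar collagens, 8 basement membrane collagens and 24 other collagens from textbook knowledge of the proteins. Every collagen is built from alpha chains, wound into a triple helix from 3 identical or different chains. Fibrillar collagens pack into the fibrils of connective tissue and are the classical product of fibroblasts, basement membrane collagens form the sheet on which endothelial and epithelial cells rest and which encloses pericytes, and the remaining types link fibrils, form fine filaments or span the cell membrane. In the brain, fibrillar collagen is known mainly from the meninges and the walls of larger vessels, whereas in the lung it lies around airways, vessels and alveoli.

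The study sorted Nestin-GFP+ cells from brain and from lung of mice of about 6 weeks of age, dissociated with trypsin, to compare cells that carry this reporter in and outside the central nervous system. GFP is driven in these mice by regulatory elements of Nestin, an intermediate filament gene known from neural progenitors and also active in pericytes and other vessel cells. Each library therefore holds cells sorted by that reporter and not the whole tissue. The study took the many non-neural cells of the lung sort as a sign that the reporter labels unspecifically there. The labels give the strain as C57BL/6, whereas the study's methods give outbred and mixed backgrounds for its wild-type mice, with which transgenic mice were bred. How many mice entered each library is not given in the sources used here. Each tissue is 1 library of single-cell RNA-seq read from the 3′ end of transcripts, so no difference between brain and lung has a replicate check, no p-value is given, and tissue and library cannot be told apart. All intervals below are 95% intervals for counting error only.

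The brain library held 4640 barcodes with 26221173 UMIs and the lung library 5981 barcodes with 36816962 UMIs, and 15 barcode sequences occurred in both. With the limits on genes and mitochondrial counts that the study's methods state, 4151 brain cells with a median of 4209 UMIs and 5608 lung cells with a median of 5585 UMIs were kept here. The study's own maps show as many cells as the files have barcodes, so the 489 brain and 373 lung barcodes left out here appear to have stayed in there; they held 28.3% and 8.82% of the collagen UMIs. Each cell was given a class by lists of 8 marker genes, none of them a collagen: a class needed 3 or more markers with a UMI and a lead of 2 over every other list. This placed 3688 brain cells, 88.8%, in 10 classes and 4363 lung cells, 77.8%, in 10 classes; 302 and 771 of them, respectively, stood exactly at the limit of the rule. The classes are ranges cut from a marker count, so each is called "like" its cell type, and names were rebuilt here. The median cell of a class had 4 to 8 markers of its own list and 1 to 4 of the next best list. The 34 alveolar fibroblast-like cells had 0 of their own markers among their 10 leading genes, whereas the other classes had 2 to 7.

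Collagen genes gave 2.61% of the UMIs of kept lung cells and 0.0632% of those of kept brain cells. Fibrillar collagens made up 78.6% of the lung collagen UMIs and basement membrane collagens 14%. In brain the groups were closer, at 37.2% fibrillar, 34.6% basement membrane and 28.3% other. The 1909 neuroblast-like cells, the largest brain class, gave only 0.00913% of their UMIs to collagens. By contrast, the largest lung class, 2356 pericyte-like cells, gave 1.08%.

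The lung adventitial fibroblast-like cells (285 cells), which by their markers resemble the fibroblasts around airways and larger vessels, had the highest collagen share of the 20 classes, 9.4% of UMIs. Of these 285 cells, 166 stood exactly at the limit of the marker rule. Single cells of this class ranged from 1.59% to 25.8%, with a median of 8.81%. Next came the alveolar fibroblast-like cells at 2.15% (34 cells), the neural-like cells at 1.65% (33 cells), the myofibroblast-like cells at 1.44% (851 cells), the pericyte-like cells at 1.08% and the smooth muscle-like cells at 0.881% (62 cells). The median alveolar fibroblast-like cell was at 1.57% and the highest at 10.1%. Its median was near those of the neural-like (1.54%) and myofibroblast-like (1.46%) cells. In brain, the fibroblast-like cells led with 1.05% (61 cells), ahead of the mural-like cells at 0.363% (165 cells), the endothelial-like cells at 0.147% (308 cells) and the OPC-like cells, or oligodendrocyte precursor-like cells, at 0.123% (218 cells). The highest brain class was thus close to the lung pericyte-like class. The lung T cell-like and endothelial-like cells were at 0.424% and 0.33%. The lung epithelial-like and myeloid-like cells and the brain ependymal-like, quiescent NSC or astrocyte-like, microglia-like, mature oligodendrocyte-like and activated progenitor-like cells lay between 0.00977% and 0.139%.

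**Figure D1:**
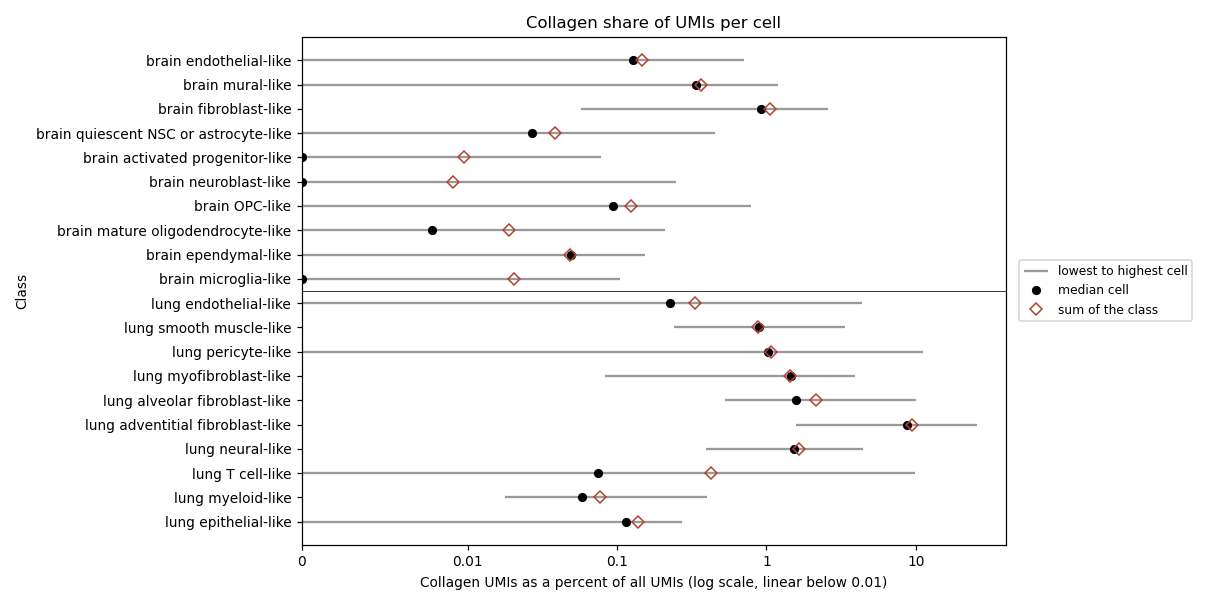
Collagen UMIs as a percent of all UMIs (log scale, linear below 0.01%) for each class, with a grey line from the lowest to the highest cell, a black dot for the median cell and an open diamond for the summed class. The lung adventitial fibroblast-like cells lie highest, with a median of 8.81%, and the median T cell-like cell, at 0.075%, lies below its class sum of 0.424%.

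The groups of collagens divided the classes in different proportions. Values are given as CPM, the UMIs of a gene after scaling every class to the same total. Fibrillar collagens were at 86040 CPM in adventitial fibroblast-like cells, where they were 91.5% of all collagen UMIs. The lung pericyte-like cells had 3594 CPM of fibrillar and 6493 CPM of basement membrane collagens, the highest basement membrane sum of any class. In brain endothelial-like cells 96.8% of collagen UMIs were basement membrane collagens, at 1426 CPM against 29.9 CPM of fibrillar collagens. The lung endothelial-like cells had 1834 CPM and 1365 CPM, respectively; without the barcode filter the order turned, with 2089 CPM of basement membrane and 2665 CPM of fibrillar collagens. In OPC-like cells neither of these groups led: other collagens were at 830 CPM, fibrillar collagens at 375 CPM and basement membrane collagens at 24.4 CPM.

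**Figure D2:**
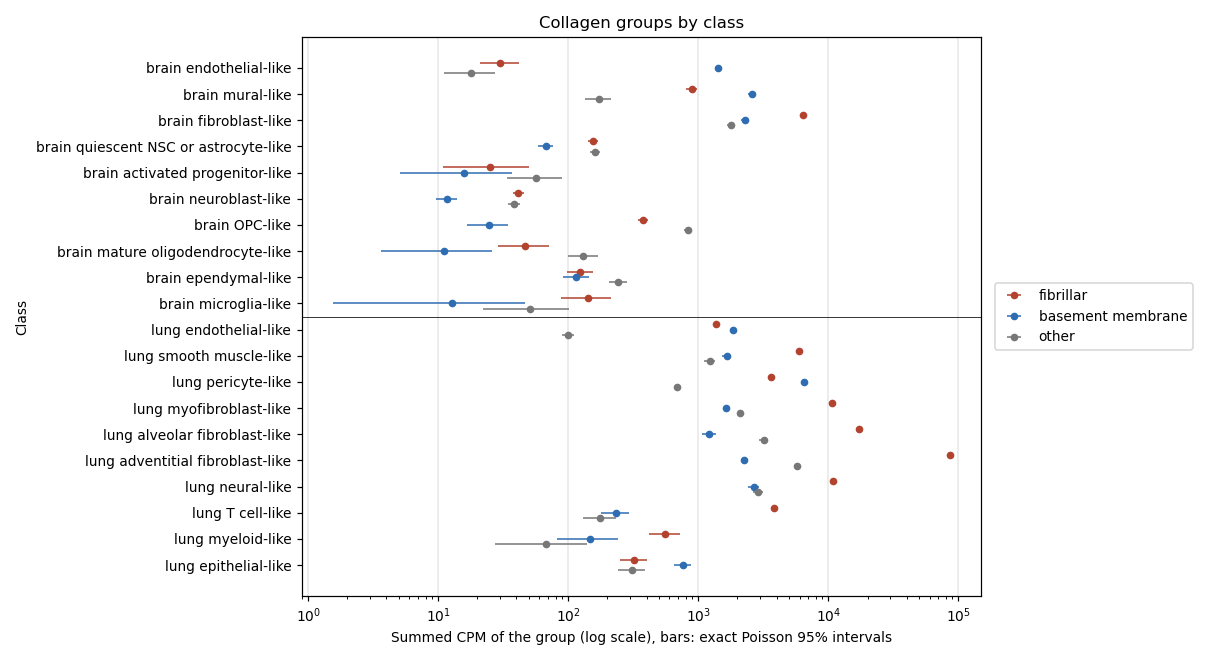
Summed CPM (log scale) of the 11 fibrillar, 8 basement membrane and 24 other collagen genes in each class, with exact Poisson intervals as bars. With the barcode filter, basement membrane collagens exceed fibrillar collagens in both endothelial-like classes, in brain mural-like cells (2566 against 894 CPM) and in lung pericyte-like cells, whereas the order is the opposite in every fibroblast-like class.

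T cells are not known to make fibrillar collagen, so the lung T cell-like class (101 cells, median 1855 UMIs) shows what cells of that library can carry. Its fibrillar sum was 3829 CPM, the highest among the classes that should lack these transcripts: the myeloid-like cells (15 cells) had 554 CPM and the epithelial-like cells (28 cells) 321 CPM. Its median cell had 0.075% collagen and its highest cell 9.91%. As in the adventitial fibroblast-like cells (91.5%), fibrillar genes were 90.4% of its collagen UMIs, and the UMIs of Col3a1 per UMI of Col1a1 were 0.997, beside 1.14 in the adventitial class. The adventitial marker list summed to 176 CPM in T cell-like cells, with 5 of 8 markers seen. The part of this background in the values of the other lung classes was not tested.

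Of the 11 fibrillar collagens, 6 had their highest value in lung adventitial fibroblast-like cells. Col1a1 and Col1a2, the chains of type I collagen, reached 27382 CPM (27180 to 27585) and 24508 CPM (24317 to 24701) in adventitial fibroblast-like cells, 5.25 and 5.64 times the next class, the alveolar fibroblast-like cells. Col3a1, whose product mixes with type I collagen in the fibrils of elastic tissue, was the most abundant collagen there, at 31329 CPM (31113 to 31546). Col5a1 and Col5a2, chains of a minor collagen that starts and limits fibril growth, were highest in the same class at 1219 and 1425 CPM. For Col5a2 the next class was not a fibroblast but the lung endothelial-like class, at 647 CPM. Col24a1, a low-abundance fibrillar chain, had 25.3 CPM in adventitial and 24.3 CPM in myofibroblast-like cells, which their counting intervals did not separate.

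The third type V chain, Col5a3, had its highest values outside fibroblasts: 156 CPM (103 to 227) in lung neural-like cells and 142 CPM in brain mural-like cells, a ratio of only 1.1. Col27a1, a chain best known from cartilage, was highest in lung myofibroblast-like cells at 232 CPM (219 to 245), followed by neural-like cells at 162 CPM. The remaining fibrillar chains, also known from cartilage, were highest in brain. Col11a1 had 133 CPM (98 to 177) in brain fibroblast-like cells and 88.9 CPM in OPC-like cells. Its partner chain Col11a2 was highest in OPC-like cells, at 164 CPM (142 to 187), against 42.4 CPM in quiescent NSC or astrocyte-like cells. Col2a1 was also highest in OPC-like cells, at 63.7 CPM (50.6 to 79.2), and its next class with 10 or more UMIs had 1.93 CPM; its 81 UMIs there came from 28 of 218 cells.

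**Figure D3:**
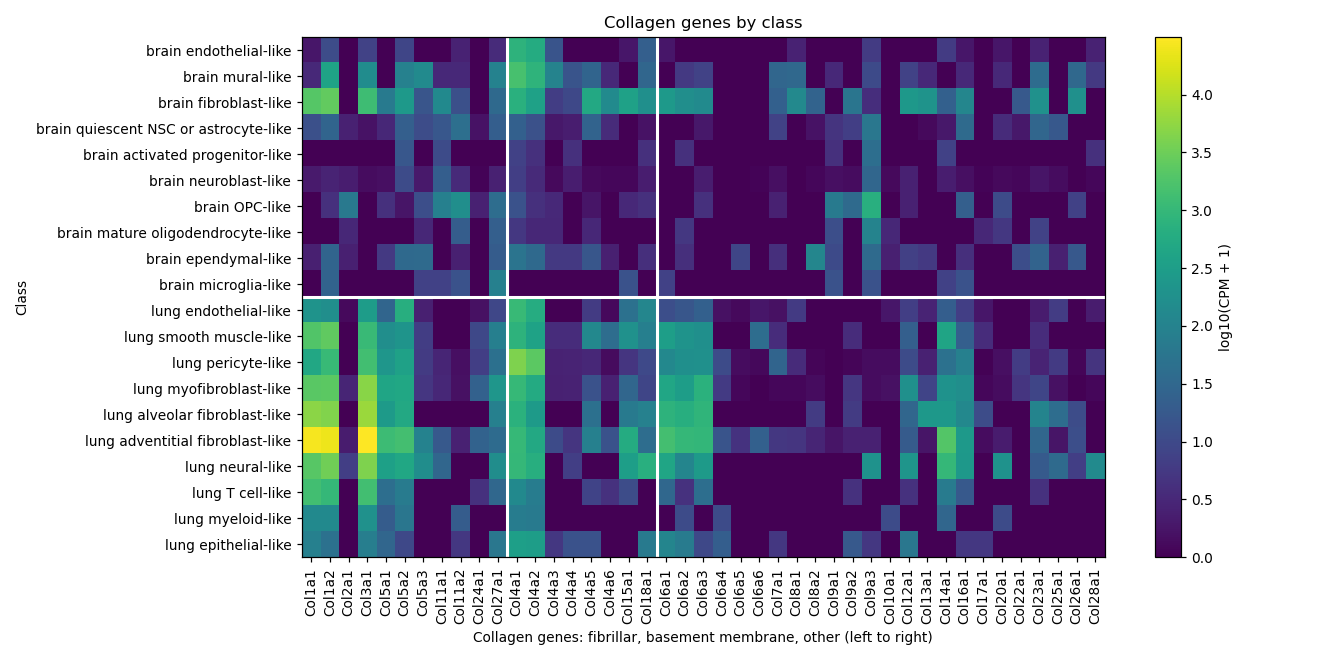
Heat map of the CPM (log scale) of each collagen gene in each class, with genes sorted by group and classes by library. Col1a1, Col1a2 and Col3a1 are highest in adventitial fibroblast-like cells, Col4a1 and Col4a2 in lung pericyte-like cells, and Col9a3, Col11a2 and Col2a1 in brain OPC-like cells.

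Among the basement membrane collagens, Col4a1 and Col4a2, the chains found in nearly every basement membrane, were highest in lung pericyte-like cells. Col4a1 had 4203 CPM (4167 to 4240) there and 1541 CPM in brain mural-like cells, the next class. Col4a2 had 2271 CPM (2244 to 2298) and 851 CPM in the same classes. These genes lie head to head on opposite strands of chromosome 8, Col4a1 at chr8:11198423-11312826 and Col4a2 at chr8:11312805-11449287 in the GRCm38 annotation, so their 5′ ends overlap. Over the 20 classes their log CPM values had a Pearson correlation of 0.994, a description over classes that share libraries and depth. Col4a5 and Col4a6 on chromosome X are also arranged head to head, 1308 bases apart, and gave 0.889. Col4a3 and Col4a4 lie 71 bases apart on chromosome 1 and gave only 0.595.

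The RefSeq promoter windows of the type IV pairs on chromosomes 8 and X (250 bases before to 50 after each gene start, build GRCm38.p6) are shown because each pair lies head to head and its members had their highest or near-highest values in shared classes. Each is written 5′ to 3′ on the strand of its gene, with the letters CCAAT, or their reverse complement ATTGG, in capitals. The windows of Col4a1 and Col4a2 share 78 bases, read on opposite strands.
Col4a1 (chr8:11312777-11313076, minus strand): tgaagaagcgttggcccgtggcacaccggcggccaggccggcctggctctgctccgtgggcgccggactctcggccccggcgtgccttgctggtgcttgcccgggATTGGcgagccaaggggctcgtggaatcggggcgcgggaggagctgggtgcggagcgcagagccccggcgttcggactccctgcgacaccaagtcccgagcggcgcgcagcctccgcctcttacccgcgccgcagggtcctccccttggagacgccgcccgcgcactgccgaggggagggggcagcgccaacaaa
Col4a2 (chr8:11312555-11312854, plus strand): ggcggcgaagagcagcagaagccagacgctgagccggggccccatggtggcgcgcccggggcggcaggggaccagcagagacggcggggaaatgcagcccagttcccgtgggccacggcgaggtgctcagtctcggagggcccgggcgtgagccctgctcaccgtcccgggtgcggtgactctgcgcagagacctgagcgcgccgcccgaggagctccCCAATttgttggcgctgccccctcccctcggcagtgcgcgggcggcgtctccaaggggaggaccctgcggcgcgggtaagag
Col4a5 (chrX:141475169-141475468, plus strand): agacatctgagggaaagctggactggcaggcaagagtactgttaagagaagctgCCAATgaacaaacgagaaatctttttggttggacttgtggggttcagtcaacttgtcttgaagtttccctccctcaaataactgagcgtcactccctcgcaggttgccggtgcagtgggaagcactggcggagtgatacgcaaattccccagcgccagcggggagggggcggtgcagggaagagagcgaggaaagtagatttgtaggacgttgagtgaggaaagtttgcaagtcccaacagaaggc
Col4a6 (chrX:141474027-141474326, minus strand): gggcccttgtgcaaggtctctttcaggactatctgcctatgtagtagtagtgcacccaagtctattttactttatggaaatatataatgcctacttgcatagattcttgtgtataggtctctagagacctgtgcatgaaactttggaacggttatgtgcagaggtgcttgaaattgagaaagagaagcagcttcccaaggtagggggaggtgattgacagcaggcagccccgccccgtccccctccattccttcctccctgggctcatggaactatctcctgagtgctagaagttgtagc

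CCAAT on either strand was present once in each of these windows except that of Col4a6, where these letters were not found. It occurred in 37.4% of all 32851 RefSeq promoter windows and in 13 of the 37 windows, 35.1%, of the 34 collagen genes that matched by symbol. The letters GGGCGG, searched on both strands, were in 35.7% of all windows and in 62.2% of the collagen windows. TATAAA was in 13.6% and 13.5%. These matches are letters in a window and not known binding sites.

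The minor type IV chains peaked elsewhere. Col4a3, a chain of the glomerular and alveolar basement membrane, had 102 CPM (74.1 to 136) in brain mural-like cells, from 45 UMIs, against 13.7 CPM in brain endothelial-like cells and 1.68 CPM in lung pericyte-like cells. Col4a3 overlaps exons of an antisense gene, C430014B12Rik, and without a stated strand setting the counts of such pairs are uncertain. Col4a4 was low: among classes with 10 or more UMIs its highest value was 3.89 CPM (1.87 to 7.16) in adventitial fibroblast-like cells, whereas 6 UMIs in brain mural-like cells gave 13.5 CPM (4.97 to 29.5). Col4a5 was highest in brain fibroblast-like cells at 511 CPM (439 to 591), followed by lung smooth muscle-like cells at 126 CPM. Col4a6, its partner in smooth muscle basement membranes, followed the same order, at 139 CPM (103 to 184) and 39.1 CPM. The order of the leading classes was therefore the same for this pair.

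Col15a1 and Col18a1 encode the multiplexins, proteoglycan collagens that sit at the border of the basement membrane. Col15a1 was highest in adventitial fibroblast-like cells at 589 CPM (560 to 620), ahead of brain fibroblast-like cells at 369 CPM. Col18a1, the precursor of endostatin, was highest in lung neural-like cells at 695 CPM (576 to 831), with brain fibroblast-like cells at 176 CPM and lung endothelial-like cells at 116 CPM behind. With every cell thinned to 1000 UMIs, Col18a1 was seen in 39.4% of the 33 neural-like cells, in 11.4% of the endothelial-like cells of the lung and in 0% of T cell-like cells (upper limit 3.62%; medians before thinning 5455, 5380.5 and 1855 UMIs).

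Of the other collagens, the type VI chains, which form beaded filaments around cells, were highest in adventitial fibroblast-like cells. Col6a1 had 1415 CPM (1370 to 1462), Col6a2 984 CPM (946 to 1023) and Col6a3 962 CPM (924 to 1000). The alveolar fibroblast-like cells were close for Col6a3, at 878 CPM. Col6a4 had no UMI in brain and reached 14 CPM (9.82 to 19.4) in adventitial cells, beside 21.4 CPM (6.94 to 49.9) from 5 UMIs in epithelial-like cells. Col6a6 was highest in lung smooth muscle-like cells at 39.1 CPM (21.4 to 65.6), from 14 UMIs, which overlapped the level in adventitial cells, 23 CPM from 59 UMIs. Col6a5 had 77 UMIs over both libraries but under 10 in every class.

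The FACIT collagens, which decorate the surface of fibrils, divided between tissues. Col14a1 was highest in adventitial fibroblast-like cells at 1966 CPM (1912 to 2021), followed by neural-like cells at 1002 CPM. Col16a1 was highest there too, at 263 CPM (243 to 283), with neural-like cells at 249 CPM from 43 UMIs within its counting error. Col12a1, a FACIT of tendon and dense connective tissue, was highest in brain fibroblast-like cells at 253 CPM (203 to 311), near the 220 CPM of lung neural-like cells. Col22a1, known from tissue junctions, stayed at or below 5.29 CPM (4.07 to 6.77, lung pericyte-like cells) in every class with 10 or more UMIs, and 6 UMIs in brain fibroblast-like cells gave 17 CPM (6.25 to 37.1).

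The chains of type IX, a FACIT of cartilage, had their highest values in the brain. Col9a3 had 685 CPM (640 to 732) in OPC-like cells, the highest value of any collagen there, and 191 CPM in lung neural-like cells. After thinning, 31.7% of OPC-like cells and 2.87% of neuroblast-like cells had a Col9a3 UMI (medians before thinning 6079 and 4515 UMIs). The gene overlaps exons of Tcfl5 on the opposite strand, so its counts carry the uncertainty given above for Col4a3, as do those of Col4a1, Col4a2, Col5a1, Col6a4, Col6a6, Col10a1, Col15a1 and Col22a1. Col3a1, Col7a1 and Col20a1 overlap exons of another gene on their own strand. Col9a1 was also highest in OPC-like cells at 66.9 CPM (53.4 to 82.7), against 3.8 CPM in quiescent NSC or astrocyte-like cells. For Col9a2 the brain fibroblast-like cells, at 53.9 CPM (32.5 to 84.2) from 19 UMIs, and the OPC-like cells, at 34.6 CPM from 44 UMIs, were not separated by their counting intervals.

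Lung neural-like cells, gated by a list of glial markers that includes Sox10, were the highest class of 4 collagens although only 33 cells carried the label. Col5a3 and Col18a1 are given above. Col20a1, a FACIT, had 197 CPM (136 to 275) there from 34 UMIs and 9.44 CPM in brain OPC-like cells. Col28a1, known from peripheral nerve, had 139 CPM (89 to 207) from 24 UMIs, 37.6 times the next class, lung pericyte-like cells at 3.7 CPM. The marker lists of other mesenchymal classes summed to between 28.9 CPM (adventitial, 2 of 8 markers seen) and 110 CPM (smooth muscle) in the neural-like cells, whose fibrillar collagens summed to 10907 CPM.

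Among the transmembrane collagens, Col13a1 was highest in alveolar fibroblast-like cells at 251 CPM (186 to 331), from 50 UMIs, and reached 199 CPM in brain fibroblast-like cells. Col23a1 was highest in brain fibroblast-like cells at 187 CPM (145 to 238), followed by alveolar fibroblast-like cells at 105 CPM. These transmembrane collagens thus shared their leading classes, whose order was not separated by counting error for Col13a1 (ratio 1.26, 0.861 to 1.84). Col25a1, a transmembrane collagen first known from amyloid plaques, had 16.5 CPM (12.3 to 21.6) in quiescent NSC or astrocyte-like cells, but all 52 UMIs came from 4 of 802 cells, and 8 UMIs in alveolar fibroblast-like cells gave 40.2 CPM (17.3 to 79.1). Col17a1, a transmembrane collagen of epithelial anchoring, and Col10a1, a network collagen of growth plate cartilage, had 25 UMIs each over both libraries and under 10 in every class.

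Col8a2, a network collagen of the corneal endothelium, was highest in brain ependymal-like cells at 115 CPM (90.5 to 144), and 10 or more UMIs were found in no other class. After thinning, 12.1% of 99 ependymal-like cells and 0% of 773 quiescent NSC or astrocyte-like cells had a Col8a2 UMI (upper limit 0.476%; medians before thinning 6899.5 and 3712.5 UMIs). Its partner Col8a1 had 131 CPM (95.6 to 174) in brain fibroblast-like cells, but its 46 UMIs came from 4 of 61 cells. Col26a1 was highest in brain fibroblast-like cells as well, at 182 CPM (140 to 232), followed by mural-like cells at 31.6 CPM. Col7a1, the anchoring fibril collagen of skin, had 29.3 CPM (15.6 to 50.2) in brain mural-like cells and 27 CPM in lung pericyte-like cells, a ratio of 1.09. In all, lung adventitial fibroblast-like cells were the highest class of 14 collagens and brain fibroblast-like cells of 8.

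Chains that are built into one molecule were then set against each other. UMIs read from the 3′ end count molecules and were not divided by length, so these are shares of counted transcripts and not of protein. Type I collagen is known as a trimer of Col1a1 and Col1a2 chains. Col1a1 made up 52.8% of the UMIs of the pair in adventitial fibroblast-like cells, 49.3% in myofibroblast-like cells and 43.6% in brain fibroblast-like cells. In lung pericyte-like cells the share was 31.4%. Brain mural-like cells had 178 UMIs of Col1a2 and 1 of Col1a1, a share of 0.559% (0.0141 to 3.07) that was 0% without that UMI under 3 alternatives. Quiescent NSC or astrocyte-like cells had 30.3%, neural-like cells 39.3% and lung smooth muscle-like cells 43.2%, so Col1a2 exceeded Col1a1 in several classes. In T cell-like cells the share was 57.4%, above that of every class given in this paragraph.

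Col3a1 against Col1a1 varied in the same classes. Lung pericyte-like cells had 2.72 UMIs of Col3a1 per UMI of Col1a1 and myofibroblast-like cells 2.25, against 1.14 in adventitial and 0.63 in brain fibroblast-like cells. The quiescent NSC or astrocyte-like cells had 2 UMIs of Col3a1 beside 37 of Col1a1 and 85 of Col1a2. For Col4a1 and Col4a2 the shares were more even: among classes with 50 or more UMIs of the pair, Col4a1 made up 51.3% in the lowest class, lung epithelial-like cells, and 72.5% in the highest, alveolar fibroblast-like cells. It was 64.9% in lung pericyte-like and 64.4% in brain mural-like cells. Of Col6a1 and Col6a2, Col6a1 made up 59% in adventitial and 62.1% in brain fibroblast-like cells, 41.2% in pericyte-like cells and 80.2% in neural-like cells.

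**Figure D4:**
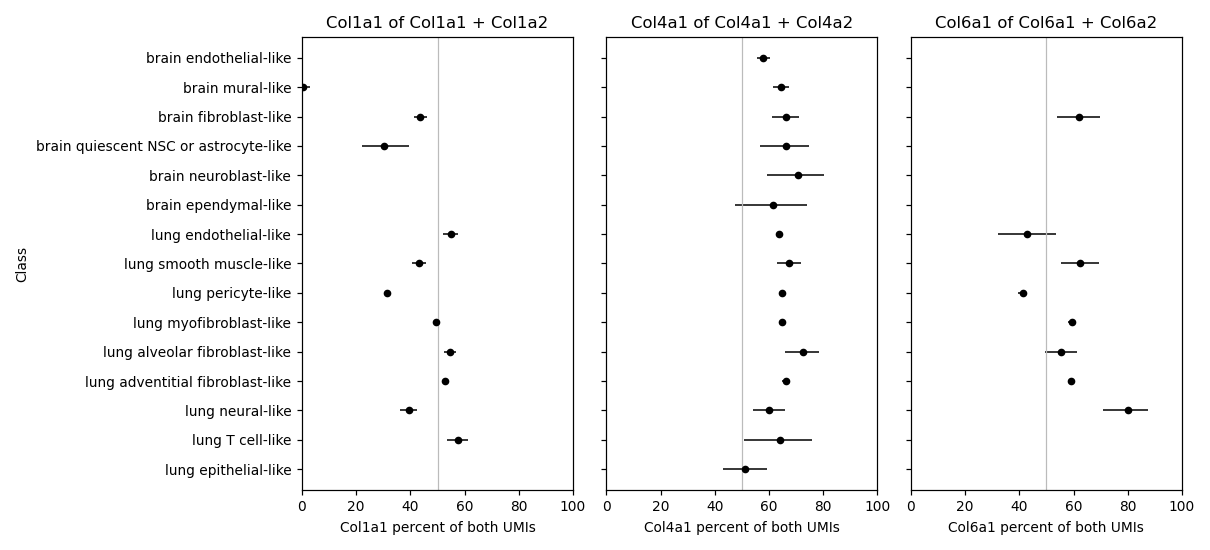
UMIs of the first chain as a percent of both chains, with exact binomial intervals, for Col1a1 with Col1a2, Col4a1 with Col4a2 and Col6a1 with Col6a2, in the classes with 50 or more UMIs of the pair. The type IV shares lie between 51.3% and 72.5%, whereas Col1a1 falls to 0.559% in brain mural-like cells.

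The comparison of endothelial-like cells between tissues covered 16 collagens with 20 or more UMIs over both classes. Here and below, a gene counts as higher or lower at a 2-fold ratio of CPM, a class at 0 is set to a floor of 3 UMIs, and the same count over all genes is given as the background. In lung endothelial-like cells 14 of the 16 were higher and 0 lower, against 14.5% and 10.9% of the 10439 genes compared. The lung class had more UMIs in all (3402498 against 1170805), and most of these collagens reached 20 UMIs through the lung class alone, so the count is a description; with at most 1 marker of another list, 7 were higher. Col4a3 fell short of that minimum with 16 UMIs in brain (13.7 CPM) and 0 in lung, at least 15.5-fold lower in lung. Col4a1 (1063 against 803 CPM, ratio 1.32, 1.23 to 1.42) and Col4a2 (603 against 586 CPM, ratio 1.03, 0.944 to 1.12) were the collagens within the fold.

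Col1a1 had the largest ratio, with 202 CPM in lung and 1 UMI (0.854 CPM) in brain endothelial-like cells, a ratio of 236 (42.2 to 9337). Col5a2 had 647 CPM in lung and 7.69 CPM in brain, a ratio of 84.2 (44.3 to 184). Col15a1 followed at 46.7 CPM against 1 UMI, a ratio of 54.7 (9.68 to 2174). Col3a1 had 310 and 6.83 CPM, a ratio of 45.4 (22.9 to 105), and Col1a2 166 and 10.2 CPM, a ratio of 16.2 (9.22 to 31.6). Col6a1, with 11.2 CPM against 1 UMI, had a ratio of 13.1 (2.21 to 530). Col5a1, Col6a3 and Col6a2 had no UMI in brain endothelial-like cells and were at least 11.2-fold, 8.83-fold and 5.85-fold higher in lung. Col16a1, at 5.88 CPM against 1 UMI, had a ratio of 6.88 (1.1 to 285).

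Set against T cell-like cells, Col5a2 and Col18a1 were higher in lung endothelial-like cells with counting intervals that did not overlap. For Col5a2, 40.6% (36.6 to 44.6) of thinned endothelial-like cells and 2% (0.243 to 7.04) of T cell-like cells had a UMI (median depths before thinning 5380.5 and 1855 UMIs), and for Col18a1 11.4% (9 to 14.3) and 0% (0 to 3.62). The shares of Col6a2, Col12a1 and Col15a1 were higher too, but their intervals overlapped. The other 9 of the 14, Col1a1, Col1a2, Col3a1, Col5a1, Col6a1, Col6a3, Col14a1, Col16a1 and Col27a1, were not above T cell-like cells in both CPM and thinned share; Col1a2, for example, had 166 against 999 CPM and Col5a1 28.8 against 41.3 CPM. For Col1a1, Col1a2 and Col3a1 the order depended on the class used as background. In T cell-like cells Col1a1 and Col3a1 had 1343 and 1339 CPM, above the 202 and 310 CPM of endothelial-like cells. In myeloid-like cells they had 136 and 185 CPM and in epithelial-like cells 89.8 and 81.3 CPM, below the endothelial-like values. Col1a2 had as many UMIs as Col1a1 in myeloid-like cells (14 each) and fewer in epithelial-like cells (11 against 21). It was thus also below its endothelial-like value in these classes. The adventitial marker list summed to 128 CPM in lung endothelial-like cells with 7 of 8 markers seen and Igfbp6 at 0, whereas in brain endothelial-like cells the brain fibroblast list summed to 22.2 CPM with 4 of 8 seen and Dcn at 0. The part of transcripts from other cells in this difference was not tested.

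In pericyte-like cells of the lung against mural-like cells of the brain, 30 collagens were compared. Of these, 12 were higher and 8 lower in lung, against 13.8% and 16.5% of all 12089 genes. The lung class had 11906766 UMIs and the brain class 443125, and 7 of the 12 had 3 UMIs or fewer in brain and reached the minimum through lung, so these counts too are a description; 13 were lower with a minimum of 1 UMI, 4 with a minimum of 50 UMIs and 3 with at most 1 marker of another list. As summed CPM, fibrillar collagens were at 3594 in lung and 894 in brain and basement membrane collagens at 6493 and 2566. Member by member the basement membrane collagens divided, with 2 higher in lung, Col4a1 and Col4a2, and 4 minor members higher in brain. Markers of the lists differ between the libraries, so the lung and brain classes were not gated by the same genes.

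Col1a1 again had the largest ratio, with 495 CPM in lung against 1 UMI (2.26 CPM) in brain, 219 (39.3 to 8662). Col16a1 had 90.1 CPM against 1 UMI, a ratio of 39.9 (7.15 to 1579), and Col6a2 176 CPM against 2 UMIs, a ratio of 38.9 (10.8 to 322). Col5a1 was at least 34.3-fold higher, at 232 CPM against 0 UMIs. For Col6a3, 183 CPM in lung and 3 UMIs in brain gave a ratio of 27 (9.22 to 131). Col6a1 and Col14a1, at 0 UMIs in brain, were at least 18.2-fold and 7.02-fold higher. Col3a1 had 1348 against 153 CPM, a ratio of 8.78 (6.93 to 11.3), and Col5a2 379 against 92.5 CPM, a ratio of 4.1 (3.02 to 5.72). Col4a1 was higher by 2.73 (2.53 to 2.95), and Col1a2 and Col4a2 by 2.69 and 2.67. Beside T cell-like cells, Col1a1 (495 against 1343 CPM) and Col14a1 (47.5 against 72.3 CPM) had lower CPM in lung pericyte-like cells, and Col3a1 (1348 against 1339 CPM) and Col1a2 (1082 against 999 CPM) were close. The thinned shares of cells were 67.9% against 28% for Col3a1 and 60.9% against 16% for Col1a2 (median depths before thinning 5200 and 1855 UMIs). For Col1a1 (30.4% against 24%) and Col14a1 (4.03% against 2%) the shares were higher in pericyte-like cells, with intervals that overlapped. In myeloid-like and epithelial-like cells Col1a1 was below its pericyte-like CPM.

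Col4a3 led the collagens with 20 or more UMIs that were higher in brain mural-like cells, at 102 against 1.68 CPM, a ratio of 60.5 (35 to 108). Col5a3 had 142 against 5.04 CPM, a ratio of 28.2 (19.5 to 40.9), and the transmembrane collagen Col23a1 38.4 against 1.85 CPM, a ratio of 20.8 (10.4 to 40.9). Col4a5, Col8a1 and Col4a4 were 12.4-fold, 12.1-fold and 7.68-fold higher in brain from 6 to 14 UMIs each. Col18a1 and Col27a1 had ratios of 3.33 and 2.21. Below the minimum, Col26a1 had 14 UMIs in brain (31.6 CPM) and 2 in lung, a ratio of 188 (43.2 to 1705). Of the 4 basement membrane collagens that were higher in brain, 3 are chains of type IV. The brain mural-like cells also held all 8 markers of the brain fibroblast list at 704 CPM, and the lung pericyte-like cells the adventitial list at 316 CPM; their part in these ratios was not tested.

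Between fibroblasts, the lung adventitial class (285 cells, 5.08% of kept lung cells) was compared with the brain fibroblast-like class; this comparison was added once the alveolar class was seen to hold only 34 cells. Of 29 collagens, 13 were higher and 10 lower in lung, against 17% and 14.5% of all 9465 genes. The adventitial class had 2568800 UMIs and the brain class 352404, and 4 of the 13, Col5a3, Col6a6, Col14a1 and Col24a1, had 8 UMIs or fewer in brain and entered through the lung class. With at most 1 marker of another list, which left 2 brain and 13 lung cells, 7 were higher and 0 lower. Fibrillar collagens were higher in 7 of 9, with a median ratio of 6.75. Basement membrane collagens were lower in 3 of 7 and higher in 0. Markers of other lists were present in both classes: the brain fibroblast-like cells held 5 of 8 mural markers at 7046 CPM beside 14997 CPM of their own list, with Rgs5, Kcnj8 and Higd1b at 0, and the adventitial cells held all 8 alveolar markers at 5199 CPM beside 7637 CPM of their own. The part of these cells in the ratios was not tested. Col14a1 had 1966 against 22.7 CPM, a ratio of 86.6 (43.9 to 201). Col3a1 (24.5, 22.4 to 27), Col5a1 (17.9, 12 to 28), Col1a1 (13.5, 12.6 to 14.6) and Col1a2 (9.37, 8.78 to 10) followed. The chains of type VI were higher by similar ratios of 6.78 for Col6a3, 5.98 for Col6a2 and 5.25 for Col6a1. Col5a3 and Col5a2 had ratios of 6.75 and 5.58.

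In the other direction, Col13a1 had 199 CPM in brain fibroblast-like cells and 2 UMIs in the adventitial class, a ratio of 255 (68 to 2148). Col9a2 and Col8a1 were higher in brain by 34.6 (11.5 to 140) and 33.5 (16.7 to 74.5). Col13a1, Col9a2 and Col8a1 had under 20 UMIs in the adventitial class and entered mainly through brain, where the Col8a1 UMIs came from few cells. Col26a1 had a ratio of 16.7 (10.5 to 27), Col12a1 13.5 (9.41 to 19.6) and Col4a6 10.8 (6.82 to 17.4). Col11a1, Col23a1, Col4a5 and Col18a1 were 7.97, 6.33, 5.78 and 4.47 times as high in brain. These 10 thus included 1 fibrillar chain, Col11a1, beside type IV, transmembrane, network and FACIT collagens. Col4a1 and Col4a2 were within the fold, at ratios of 1.4 and 1.39.

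**Figure D5:**
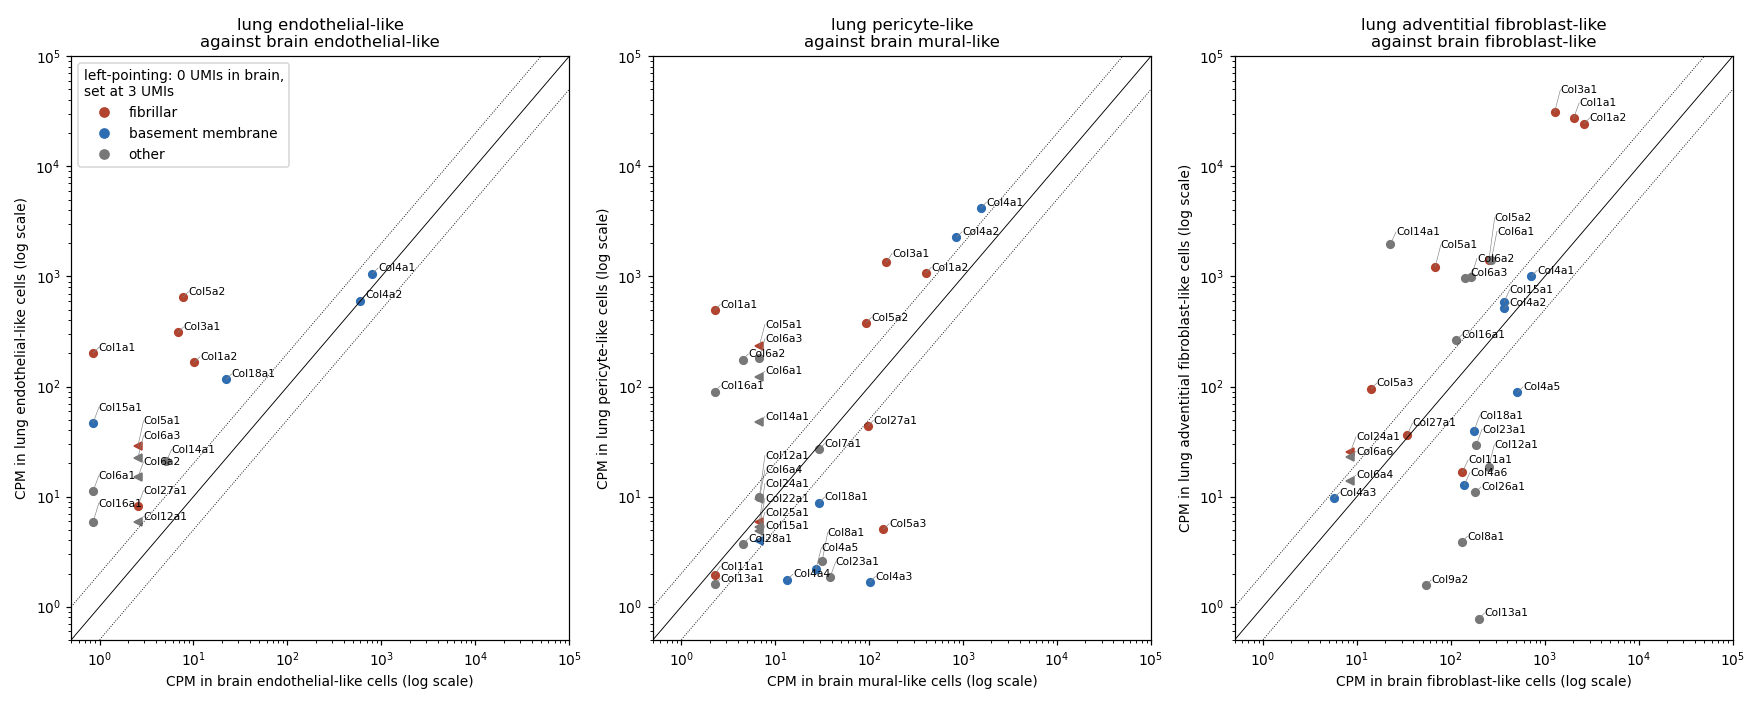
CPM of each collagen with 20 or more UMIs over both classes, in lung (y axis) against brain (x axis), both on log scales, for endothelial-like, pericyte-like or mural-like, and fibroblast-like cells, with dotted lines at 2-fold and left-pointing triangles for genes at 0 UMIs in brain, drawn at 3 UMIs. Col1a1, Col3a1 and Col5a2 lie above the dotted lines in all 3 panels, and Col4a3, Col5a3 and Col23a1 lie below it in the mural panel.

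The comparison of the 34 alveolar fibroblast-like cells with brain fibroblast-like cells gave 8 higher and 8 lower collagens of 24, against 17.9% and 15% of 4520 genes. Higher in lung were Col14a1 (ratio 11.1, 5.2 to 27), Col6a3 (6.19), Col3a1 (5.26), Col5a1 (4.05), Col6a2 (4), Col6a1 (3.02), Col27a1 (2.65) and Col1a1 (2.57). Lower were Col26a1, with 2 UMIs in lung and a ratio of 18.1 (4.81 to 153), Col4a5 (11.3, 5.82 to 25.1), Col9a2, with 1 UMI in lung (10.7, 1.71 to 446), Col12a1 (8.39) and Col15a1 (5.25). Col4a6, Col11a1 and Col8a1 had no UMI in the alveolar class and were at least 9.23-fold, 8.86-fold and 8.67-fold lower. The brain UMIs of Col8a1 came from few cells, as given above. Unlike in the adventitial comparison, Col13a1 was at similar levels, 251 and 199 CPM (ratio 1.26, 0.861 to 1.84). The alveolar class held 5 of 8 adventitial markers at 2821 CPM beside 15918 CPM of its own list. Their part in the ratios of this comparison was not tested.

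Within the lung, pericyte-like and endothelial-like cells, which lie side by side in the vessel wall and share its basement membrane, come from the same library. Of 30 collagens, 20 were higher in pericyte-like cells and 3 lower, against 18.1% and 14.5% of 12767 genes. The pericyte-like class had more UMIs (11906766 against 3402498), and 6 of the 20, Col7a1, Col6a4, Col24a1, Col22a1, Col11a1 and Col4a4, had 2 UMIs or fewer in endothelial-like cells and entered through the class where they were high. The largest ratios were those of Col7a1, at 27 CPM against 2 UMIs (45.9, 12.6 to 380), Col6a4, also against 2 UMIs (16.3, 4.41 to 136), and Col16a1 (15.3, 9.88 to 25.2). Type VI chains followed with 11.7 for Col6a2, 11 for Col6a1 and 8.08 for Col6a3. Col24a1, against 2 UMIs, had a ratio of 10 (2.67 to 84.2), Col5a1 8.05 (6.58 to 9.96) and Col1a2 6.5 (5.98 to 7.09). Col22a1, at 0 UMIs in endothelial-like cells, was at least 6-fold higher. Col4a1 and Col4a2 were 3.95 and 3.76 times as high in pericyte-like cells. Marker lists of other mesenchymal classes were also higher in pericyte-like than in endothelial-like cells. The adventitial list had 316 against 128 CPM, the alveolar 588 against 77.6, the myofibroblast 832 against 125 and the smooth muscle 1001 against 47.9. Their part in these ratios was not tested.

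The 3 collagens that were higher in endothelial-like cells were all of the basement membrane group: Col18a1 at 116 against 8.82 CPM (13.1, 10.5 to 16.4), Col15a1 at 46.7 against 3.95 CPM (11.8, 8.5 to 16.8) and Col4a5 at 5 against 2.18 CPM (2.29, 1.17 to 4.38). The basement membrane collagens of these neighbouring cells were thus divided, with the common type IV chains higher in pericyte-like and the multiplexins in endothelial-like cells. Col5a2 did not pass the fold but was higher in endothelial-like cells, at 647 against 379 CPM, unlike every other type V and type I chain.

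The same comparison in the brain covered 9 collagens, of which 6 were higher in mural-like cells and 0 lower, against 14.3% and 19.2% of 8521 genes. All 6 reached the minimum of UMIs through the mural-like class alone, so the count is a description. With a minimum of 1 UMI more collagens were higher, as given at the end. Col5a3, at 142 CPM and 0 UMIs in endothelial-like cells, was at least 55.5-fold higher. Col1a2 had 402 against 10.2 CPM, a ratio of 39.2 (21.9 to 77.3), and Col27a1 97 CPM against 3 UMIs, a ratio of 37.9 (12.1 to 191). Col3a1 (22.5, 10.8 to 54.1), Col5a2 (12, 5.76 to 28.2) and Col4a3 (7.43, 4.12 to 14.1) completed the list. Col4a1 (1.92), Col4a2 (1.45) and Col18a1 (1.32) were within the fold. Of the 9 collagens compared in both tissues, Col1a2, Col3a1, Col5a3 and Col27a1 were higher in pericyte-like or mural-like cells in each, and 0 had opposite calls. In brain these collagens had entered through the mural-like class, and the same overlap was not counted over all genes, so it is a description. The fibroblast list moved with the brain ratios, at 704 CPM in mural-like and 22.2 CPM in endothelial-like cells, and its part was not tested. The mural marker list summed to 517 CPM in brain endothelial-like cells, and hemoglobin genes were among their leading genes.

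Among lung fibroblasts, myofibroblast-like cells had 5 of 29 collagens higher and 19 lower than adventitial fibroblast-like cells, against 16.3% and 9.48% of 11550 genes. Of the 5, Col13a1, Col22a1 and Col9a2 reached the minimum through the myofibroblast-like class. Of the 19, Col6a6 and Col26a1, among others, reached it through the adventitial class, so these counts are a description. This comparison was added after seeing the data, for the same reason as above. The median ratio was 0.323, beside 1.24 for all genes, so these ratios are read against a shifted centre. Higher were Col12a1 (177 against 18.7 CPM; 9.48, 7.09 to 12.9), Col13a1, against 2 UMIs (9.42, 2.44 to 80.6), Col27a1 (6.41, 5.18 to 8), Col22a1, against 0 UMIs (at least 3.31-fold), and Col9a2 (2.6, 0.879 to 10.4). Col6a6 and Col26a1 were at 0 UMIs in myofibroblast-like cells and at least 39.6-fold and 18.8-fold lower. Col5a3 (23.6, 15.1 to 38.8), Col15a1 (19.8, 16.8 to 23.5), Col1a1 (12.4, 12.1 to 12.6), Col1a2 (10.8, 10.6 to 11) and Col14a1 (10.2, 9.52 to 10.9) were also lower. Col4a6, Col11a1 and Col4a5 were 8.32, 7.88 and 6.93 times lower. Col3a1, at 4989 against 31329 CPM, was lower by 6.28, less than Col1a1 and Col1a2. The myofibroblast-like class had secretoglobin transcripts, Scgb3a2 and Scgb1a1, which are known from airway epithelium, among its 10 leading genes, and the epithelial list summed to 6.57 CPM in it with 5 of 8 markers seen.

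Against the alveolar class, myofibroblast-like cells had 3 of 24 collagens higher and 7 lower, against 13.4% and 9.86% of 10748 genes. With a lead of 3 markers in place of 2 the counts were 7 higher and 4 lower, so their balance depended on the marker rule. Col12a1 (5.88, 2.69 to 16.1), Col27a1 (2.57, 1.62 to 4.35) and Col4a2 (2.02, 1.55 to 2.69) were higher. Col13a1 was lower by 34.2 (22 to 53.6), Col23a1 by 14 (7.82 to 24.4), Col18a1 by 12.3 (6.75 to 21.8) and Col4a5 by 3.54 (1.55 to 7.15). Col1a1 and Col15a1 had ratios of 2.36 each and Col6a2 2.07. Higher Col12a1 and Col27a1 were thus found against both fibroblast classes.

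Collagen chains need enzymes and chaperones before and after they leave the cell, and 47 such genes with the receptors for collagen were followed in the same comparisons. Here too some genes reached the minimum through the class where they were high, so the counts below are descriptions. In lung against brain endothelial-like cells, 15 of 32 were higher and 2 lower, against the 14.5% and 10.9% of all genes. The largest ratios were those of cross-linking oxidases that reached the minimum through their lung counts: Loxl2 (16.2 CPM against 1 UMI; ratio 18.9, 3.26 to 761), Loxl1 (11.5 CPM against 1 UMI; 13.4, 2.27 to 543) and Lox (22 CPM against 2 UMIs; 12.9, 3.45 to 109). Itga2, the alpha chain of a collagen-binding integrin, had 0 UMIs in brain and was at least 12.2-fold higher. Colgalt2, which adds galactose to hydroxylysine, and the integrin chain Itga1 were higher in brain, by 7.4 (3.57 to 16.5) and 2.02 (1.68 to 2.41).

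In pericyte-like against mural-like cells, 8 of 38 were higher and 5 lower, or 21.1% and 13.2%, near the 13.8% and 16.5% of all genes. Loxl1, at 21.2 CPM against 1 UMI, had a ratio of 9.42 (1.67 to 373). Adamts2 and Adamts3, proteases that remove the amino-terminal propeptide, were at 0 UMIs in brain and at least 6.64-fold and 4.65-fold higher in lung. Bmp1, which removes the carboxy-terminal propeptide, was higher by 3.97 (2.26 to 7.7). The endocytic collagen receptor Mrc2 went the other way, at 153 CPM in brain and 11.6 CPM in lung (13.2, 9.75 to 17.8), with Itga10 (7.11, 3 to 15.1) and the lysyl hydroxylase Plod1 (3.13, 2.3 to 4.18). The discoidin receptor Ddr2 was higher in lung by 2.83 (1.86 to 4.53), so the collagen receptors did not share a direction.

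In adventitial against brain fibroblast-like cells, 18 of 34 were higher and 2 lower, against 17% and 14.5% of all genes. Pcolce2, an enhancer of propeptide removal, was at 262 CPM against 0 UMIs, at least 30.7-fold higher. The prolyl hydroxylase subunit P4ha2 had 192 against 17 CPM (11.3, 5.14 to 30.9) and Adamts2 882 against 116 CPM (7.58, 5.57 to 10.6). Loxl3, against 1 UMI, had a ratio of 7 (1.2 to 282) and Loxl1 5.51 (4.19 to 7.4). The discoidin receptor Ddr1 and Itga1 were lower, by 4.08 (1.96 to 8.16) and 2.1 (1.26 to 3.37). For the alveolar class the counts were 7 higher and 2 lower of 29, or 24.1% and 6.9% against 17.9% and 15% of all genes, with Pcolce2 again first, at 718 CPM and at least 84.3-fold higher.

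Within the lung, 17 of 41 were higher in pericyte-like than in endothelial-like cells and 5 lower, against 18.1% and 14.5% of all genes. Adamts3, at 31.5 CPM against 1 UMI, had a ratio of 107 (19.1 to 4244), Pcolce 37.5 (26.7 to 54.5) and Loxl3 23.5 (12.3 to 51.5). Itga2 was 74.2 times as high in endothelial-like cells (30.8 to 233), followed by the protease Tll1 (26.2, 9.25 to 103). In brain, 13 of 25 were higher in mural-like cells and 1 lower, against 14.3% and 19.2% of all genes. Mrc2 and Pcolce, among the 13, reached the minimum through the mural-like class, so this count is a description. Mrc2, at 153 CPM against 1 UMI, had a ratio of 180 (31.2 to 7199), and Pcolce, at 183 CPM against 2 UMIs, 107 (28.7 to 899). Colgalt2 was the gene that was lower, with 1 UMI in mural-like cells (10.6, 1.75 to 433). Pcolce and Loxl3 were therefore higher in pericyte-like or mural-like cells of both tissues.

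Myofibroblast-like cells had 5 of 38 of these genes higher and 7 lower than adventitial cells, and 4 of 37 higher and 5 lower than alveolar cells. As shares these were 13.2% and 18.4% against adventitial cells, beside 16.3% and 9.48% of all genes, and 10.8% and 13.5% against alveolar cells, beside 13.4% and 9.86%. P4ha3, a prolyl hydroxylase subunit, led both lists, at 216 CPM against 12.5 CPM in adventitial cells (17.3, 12.2 to 25.5) and against 0 UMIs in alveolar cells, at least 14.3-fold higher. Loxl2 was higher by 3.7 (3.06 to 4.5) and 5.88 (2.69 to 16.1). Pcolce, P4ha2 and Lox were lower than in adventitial cells by 8.62 (7.85 to 9.49), 7.89 (6.47 to 9.67) and 5.57 (4.84 to 6.43).

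Many collagen transcripts lay outside the classes. The 1245 lung cells without a class, 22.2% of those kept, held 43.8% of the collagen UMIs of kept lung cells. Of these, 224 cells had the adventitial and the alveolar lists as their best 2 lists, gave 9.98% of their UMIs to collagens and held 52.9% of the collagen UMIs without a class. The filter on genes took a larger share of the OPC collagens than of collagens as a whole: 58.3% of the 4303 brain UMIs of Col9a3, 62.3% of those of Col9a1 and 40% of those of Col11a2 were in barcodes left out. In 72 of them that passed the OPC-like marker rule, Col9a3 was at 1180 CPM, above the 685 CPM of the kept OPC-like cells.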

How the data were processed

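Nestin-GFP+ cells of brain and lung were each measured in 1 10x Genomics 3′ library. The deposited values are whole UMI counts for each gene in each barcode, which the authors had not normalized; the submitters' processing notes name bcl2fastq 2.19.1.403, UMI-tools 1.0.0, STAR 2.7.1a, featureCounts 1.6.4 and mm10. The annotation version, strand setting and rule for choosing barcodes are not given in the sources used here.

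The limits stated in the study's methods were applied: over 200 and under 4000 genes, and less than 40% mitochondrial counts. The upper limit also removes large cells. Doublets stayed in; Scrublet (scanpy 1.11.5) called 44 brain and 74 lung barcodes, which were left out as an alternative. Of 168 marker entries, 167 were found. UMIs were summed per class and scaled to CPM (numpy 2.4.6, scipy 1.17.1) with exact Poisson, binomial or conditional binomial intervals. Shares of cells were taken after thinning to 1000 UMIs where stated, leaving out shallower cells. Correlations used log2(CPM + 10). Ratio calls were tested on simulated data. Every collagen is named with its highest class among those with 10 or more UMIs, and up to 10 per direction and comparison by ratio. Members, marker lists and pathway lists were chosen with earlier results of these data known. Gene positions are from GENCODE, promoters from RefSeq. Alternatives used edgeR 4.0.16 scaling and 18 Leiden clusters per library.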

Additional observations from a re-analysis of the deposited data

How the results depend on the processing

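No paired analysis was possible because each tissue is 1 library with no replicate number. Over 12 alternatives, 154 of 172 counts of collagens past the fold stayed within 1.5 times the reported count, and 18 did not; the cause was not tested except where fewer cells or genes were left by construction. With a lead of 3 markers, myofibroblast-like cells had 7 collagens higher and 4 lower than alveolar cells, and 3 higher than adventitial cells. With at most 1 marker of another list, which left 2 brain fibroblast-like, 7 alveolar and 13 adventitial cells, the counts were 7 higher for endothelial-like cells, 3 lower for pericyte-like against mural-like cells, 3 higher and 0 lower for alveolar and 7 higher and 0 lower for adventitial against brain fibroblast-like cells, 0 higher for myofibroblast-like against alveolar cells, and 2 higher and 8 lower against adventitial cells. A minimum of 50 UMIs gave 4 lower for pericyte-like against mural-like cells, 4 lower for alveolar against brain fibroblast-like cells and 2 higher for myofibroblast-like against adventitial cells. A minimum of 1 UMI gave 2 lower for endothelial-like cells, 13 lower for pericyte-like against mural-like cells and 12 higher for brain mural-like against endothelial-like cells. Of 27 summed CPM values, 7 moved over 1.5 times with at most 1 marker of another list (up to 2.97 times, and to 0 for the 2 brain fibroblast-like cells left), 2 without the barcode filter (up to 1.98 times, lung endothelial-like) and 1 each with a lead of 3 (0.565 times, fibrillar, alveolar), equal weights (1.53 times) and clusters (1.57 times). The Col1a1 share in brain mural-like cells fell to 0 in 3 settings. Clusters gave no adventitial or alveolar class, so those values were not run there. TMM scaling shifted log2 ratios by -0.27 to 0.24. Chosen after seeing the data, joining both fibroblast lists gave an adventitial class of 511 cells and 13 higher and 10 lower against brain fibroblast-like cells. In classes of 15 to 39 cells 1 UMI is worth 3.15 to 9.71 CPM, and in the T cell-like class 3.44 CPM.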
